A study of Mus musculus with 18 samples.

Results

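Development of wild type mouse embryos from E2.5 to E3.75 was followed in 6 of the 18 libraries of the series. These are the 3 libraries labelled Oct4 +/+ at E2.5 and the 3 labelled Oct4 +/+ at E3.75, chosen by stage and genotype alone. All embryos were of the CD1 strain, received no treatment, and were flushed from the oviduct or uterus into M2 medium. The series also holds Oct4 -/- embryos, called null here, of the same strain and stages, and its title gives its question as which genes depend on Oct4 (gene Pou5f1) in the embryo. The 6 null libraries of E2.5 and E3.75 enter 1 comparison at the end, and E4.5 was not used. Total RNA was primed with oligo(dT) and amplified, so that the reads lie mostly near the 3′ ends of polyadenylated transcripts.

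E2.5 embryos are at the cleavage and morula stages, and E3.75 embryos are blastocysts. In between, the outer cells become the trophectoderm, a sealed epithelium that pumps fluid into the blastocoel and later builds the placenta, while the inner cell mass sorts into epiblast and primitive endoderm. Hippo signalling is low in outer cells, where YAP with TEAD4 turns on Cdx2 and Gata3. Oct4 is at first present in all cells and is then lost from the trophectoderm, and FGF4 from epiblast precursors acts on FGFR2 in primitive endoderm precursors. These libraries hold RNA of whole embryos, so fewer cells of a type and less RNA per cell cannot be told apart.

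At E2.5 7082 genes were tabulated and at E3.75 6648 genes, of which 5893 are in both tables. Levels are given in CPM over those 5893 genes, after each library was rescaled to 1000000. The wild type libraries held 868033 to 1233635 reads at E2.5 and 531784 to 1177830 reads at E3.75, and 1 read was worth at most 1.88 CPM. Stage and table coincide, since each stage was scaled and filtered in a table of its own, and a difference of stage cannot be told apart from a difference between the tables. For 416 of the 5893 genes the tables also list different transcripts, which is said below where it applies to a gene.

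Library 3 of each stage differed little from a blend of libraries 1 and 2. Its variance about the best such blend was 1.258 times the sampling variance at E2.5, against 2.816 and 2.399 for libraries 1 and 2, and 1.094 times at E3.75, against 1.542 and 1.236. It was kept as a replicate, and counts with the first 2 libraries of each stage are given where they differ from the full count by over 1.5 times. The design text gives 3 embryos for a group but does not say whether a library is 1 embryo, so every p-value here rests on spread among libraries that may be technical.

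A gene is said to have risen or fallen where the adjusted p of limma was under 0.05 and the difference on the log2(CPM + 1) scale, E3.75 minus E2.5, was at least 1 in size. By that rule 517 of 5893 genes rose, which is 8.77% of them, and 1008 fell, which is 17.1%. Counts of rises and falls in the gene lists below are to be read beside these shares. They leave out list members that were listed at 1 stage only. With the first 2 libraries of each stage 453 rose and 838 fell, and 1202 of the 1525 genes passed with both sets of libraries. The libraries of the 2 stages did not overlap for 3296 genes, or 55.9%, and for 1490 of the 1525 that rose or fell. Differences of at least 4-fold were found for 77 rises and 156 falls, and of at least 8-fold for 18 rises and 25 falls. Of the 156 falls 132 had a mean under 30 CPM at E3.75.

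The split between rises and falls depended on the scale. The median gene differed by -0.174 between the stages, so that a gene at 0 had moved up relative to the others. With TMM factors, which set the bulk of genes to no change, that median became -0.01 and 709 genes rose while 748 fell, so 48.66% of the calls were rises against 33.9% here. DESeq2 size factors gave 721 rises and 737 falls (49.45% rises). Every gene that rose or fell kept its direction under each of these scalings.

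**Figure D1:**
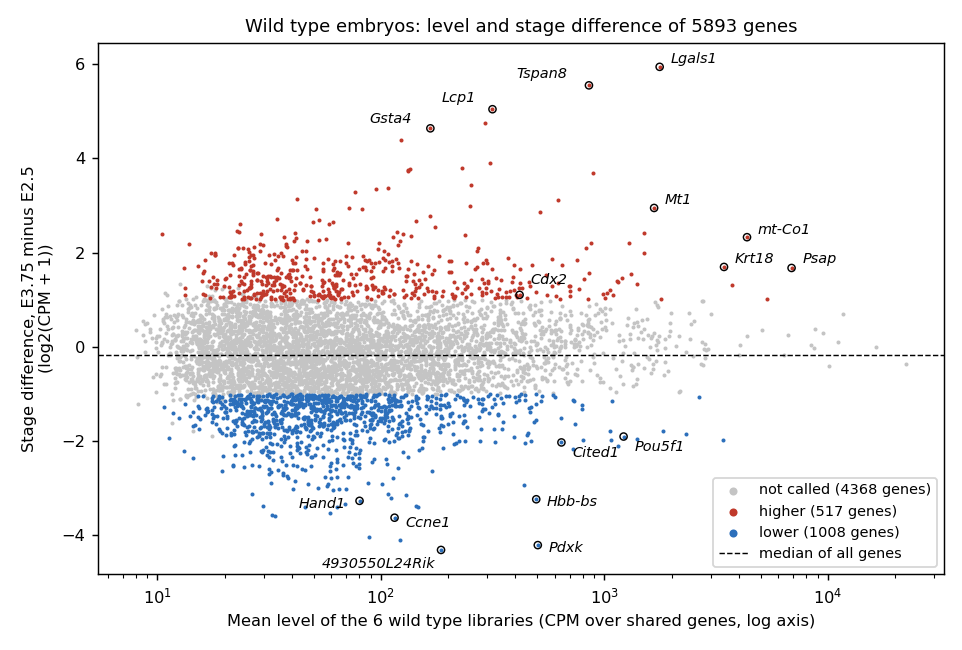
Stage difference of each of 5893 genes in wild type embryos (vertical axis, log2(CPM + 1), E3.75 minus E2.5) against its mean CPM over the 6 libraries (horizontal log axis). Red points are the 517 genes that rose, blue the 1008 that fell and grey the rest. The dashed line is the median of all genes at -0.174, and named genes are circled.

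Genes were ranked if they passed, were measured at both stages without overlap, and had a mean of at least 50 CPM at a stage. The 4 greatest rises so ranked were those of Lgals1, Tspan8, Lcp1 and Upp1. Genes listed at 1 stage only could not be ranked. Adh1, at 4128, 2473 and 3142 CPM as deposited in the E3.75 libraries and not listed at E2.5, is 1 of them. Lgals1, which encodes the sugar-binding protein galectin-1, stood at 71.6, 40.01 and 56.4 CPM in the E2.5 libraries and at 4461, 2609 and 3372 CPM at E3.75. Every E3.75 library lay far above every E2.5 library, and the difference was 5.94 ± 0.20 (SE; adjusted p = 1.23e-11, limma). Tspan8, a tetraspanin of epithelial membranes, went from 29.1, 36.5 and 39.8 CPM to 1618, 1686 and 1711 CPM. The 3 libraries of a stage lay close together for Tspan8, and it rose by 5.54 ± 0.14 (adjusted p = 4.55e-13). Lcp1, the actin-bundling protein L-plastin, went from 17.7 ± 1.91 to 614.1 ± 61.6 CPM (SD, n = 3), a difference of 5.04, and Upp1, uridine phosphorylase, went from 20.6 to 565.4 CPM. Lcp1 and Upp1 are listed under different transcripts in the 2 tables.

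The remainder of the 12 greatest rises had E3.75 means between 235.7 CPM (Gm12169) and 1649 CPM (Mt2, described further on). Tmsb4x, whose product thymosin beta 4 holds actin monomers, stood at 42.5, 31.8 and 31.5 CPM at E2.5 and at 886.1, 337.8 and 512.9 CPM at E3.75. Its E3.75 libraries differed among themselves by more, relative to their mean, than those of the other 11 greatest rises, though all lay above E2.5. Capg, which caps actin filaments, went from 18.5 ± 7.58 to 251.1 ± 22.03 CPM (SD, n = 3). Gjb5, a connexin of gap junctions, went from 17.4 to 246.6 CPM, and Lgals4, galectin-4, from 32.7 to 430.0 CPM. Gsta4, a glutathione transferase that clears products of lipid peroxidation, rose by 4.63 from 12.3 to 320.9 CPM, and Fam213a by 3.73 from 17.9 to 247.4 CPM. The gene model Gm12169 went from 10.9 to 235.7 CPM; how the counting treated near-identical copies of such models is not given in the sources used here.

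Among genes ranked in the same way, the greatest falls were in genes of varied roles, led by 4930550L24Rik and Pdxk. 4930550L24Rik stood at 417.0, 278.9 and 367.5 CPM at E2.5 and at 15.4, 24.3 and 12.4 CPM at E3.75, a difference of -4.31 ± 0.25 (SE; adjusted p = 3.75e-09, limma). Pdxk, which makes the active form of vitamin B6, went from 1106, 807.3 and 955.8 CPM to 42.4, 65.8 and 46.2 CPM. The stages were widely separated for both genes, and Pdxk fell by 4.20 ± 0.17. Ccne1, the cyclin E1 that drives entry into S phase, went from 250.4, 170.6 and 219.0 CPM to 13.5, 25.1 and 12.4 CPM (a difference of -3.62). Fbxl20, an F-box protein, fell by 4.09, to 7.71, 21.7 and 10.7 CPM. Tent5c, a poly(A) polymerase, fell by 4.03, to 13.5, 7.8 and 7.1 CPM.

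Several of the other great falls rested on a few reads at E3.75. Dnajb9, a chaperone partner in the endoplasmic reticulum, stood at 7.71, 12.99 and 0 CPM at E3.75 against 58.6 ± 10.4 CPM at E2.5 (SD, n = 3). Mael, of the piRNA pathway that silences transposons in germ cells, stood at 15.4, 4.33 and 0 CPM against 52.5 ± 35.3 CPM. The differences were -3.39 for the polo-like kinase gene Plk5, -3.39 for the tetraspanin gene Tspan4, -3.60 for C130074G19Rik and -3.52 for Hk1, a hexokinase. Hk1 is listed under different transcripts in the 2 tables.

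**Figure D2:**
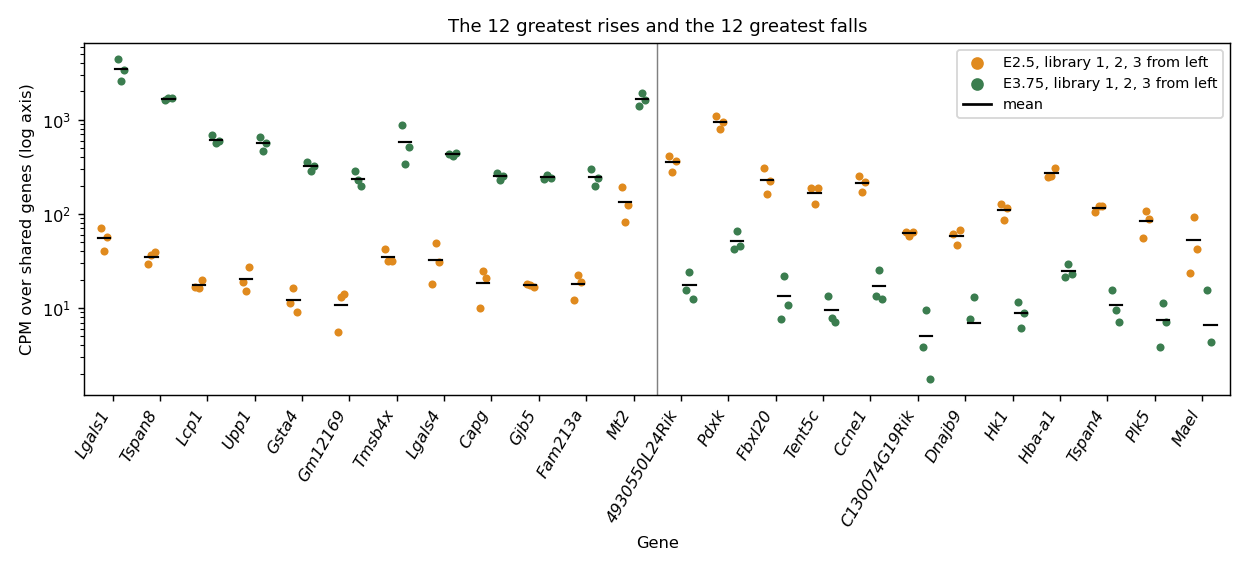
Level of the 12 greatest rises and the 12 greatest falls in each wild type library (vertical log axis, CPM over shared genes; orange E2.5, green E3.75, libraries 1 to 3 from left, bars are means). Genes were ranked among those measured at both stages, without overlap and with a mean of at least 50 CPM at a stage. Lack of overlap was thus a condition of the choice. The third E3.75 library of Dnajb9 and of Mael was at 0 CPM and cannot be drawn on a log axis.

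Of the 12 trophectoderm transcription factors measured at both stages, 5 rose and 1 fell, and their median difference was 0.61 against -0.174 over all genes. Cdx2, which directs the trophectoderm, stood at 276.1, 277.7 and 241.4 CPM at E2.5 and at 520.1, 597.6 and 592.8 CPM at E3.75. It was thus read in every E2.5 library, without overlap with E3.75, and it rose by 1.10 ± 0.12 (SE; adjusted p = 2.33e-06, limma). Eomes, which maintains trophoblast stem cells, went from 30.2, 38.8 and 52.3 CPM to 181.1, 136.8 and 179.3 CPM (difference 2.03 ± 0.23). Gata3, which acts beside Cdx2, went from 45.7 ± 11.7 to 163.0 ± 19.2 CPM (SD, n = 3). Ets2 rose by 2.72, from 8.70 to 59.9 CPM, and the transcription cofactor Cited2 by 1.99, from 6.39 to 28.2 CPM. The stages did not overlap for any of these 5 genes.

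Other regulators of the same lineage were lower at E3.75 or did not pass the test. Hand1, which acts in trophoblast giant cells, stood at 135.3, 144.7 and 158.5 CPM at E2.5 and at 13.5, 17.3 and 12.4 CPM at E3.75. It fell by 3.27 ± 0.25 (adjusted p = 6.95e-08, limma), the opposite direction to the 5 factors above. Tead4, the DNA-binding partner of YAP, went from 269.8 ± 31.4 to 140.9 ± 15.9 CPM (SD, n = 3). Its difference of -0.93 (adjusted p = 0.000129) was just short of the size required, and it passed without E2.5 library 2 (-1.01). Tfap2c stood at 35.9 and 24.4 CPM (adjusted p = 0.158) and Klf5 at 84.1 and 66.7 CPM (adjusted p = 0.225).

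Genes of the trophectoderm epithelium were higher in greater number than they were lower: 6 of 25 rose, 1 fell, and 21 of 25 lay above the median of all genes. Krt18, a keratin of simple epithelia, stood at 1593, 1636 and 1611 CPM at E2.5 and at 5995, 4671 and 5087 CPM at E3.75, and rose by 1.69 ± 0.09 (SE; adjusted p = 9.38e-10, limma). Its partner Krt8 stood at 560.1, 979.1 and 803.1 CPM and at 1289, 1379 and 1336 CPM. The stages did not overlap for Krt8 either, but the difference of 0.81 (adjusted p = 0.000371) was under the size required. Krt7 went from 24.8 to 117.1 CPM (2.21), the tight junction gene Cldn3 from 24.1 to 91.9 CPM (1.87) and Msn, which ties actin to the membrane, from 34.3 to 132.0 CPM (1.92). Cldn6, another claudin, went the other way, from 291.3 ± 31.4 to 46.0 ± 4.82 CPM (SD, n = 3), a difference of -2.64.

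Genes for the work of that epithelium were described from lists for fluid transport and for apical uptake. Of 7 fluid transport genes 2 rose. They were Atp1b1, the beta subunit of the sodium pump, from 52.5, 44.7 and 51.4 CPM to 173.4, 200.1 and 177.5 CPM (1.87 ± 0.18 SE; adjusted p = 9.12e-07, limma), and Slc9a3r1, a scaffold of apical membranes, from 43.9 to 151.8 CPM. Of 20 genes in the list named apical endocytosis 9 rose and 1 fell, with a median of 0.96. Its members were chosen with earlier results of these data known, so this count is no test of apical uptake. Lgals1, Tspan8 and Lgals4, given above, are among the 9, as are Anxa5, a calcium-dependent membrane binder (14.2 to 67.8 CPM), and Lrp2, the endocytic receptor megalin (200.9 ± 35.4 to 471.5 ± 49.8 CPM; SD, n = 3). With the first 2 libraries 8 of the 20 passed as rises and 0 as falls.

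**Figure D3:**
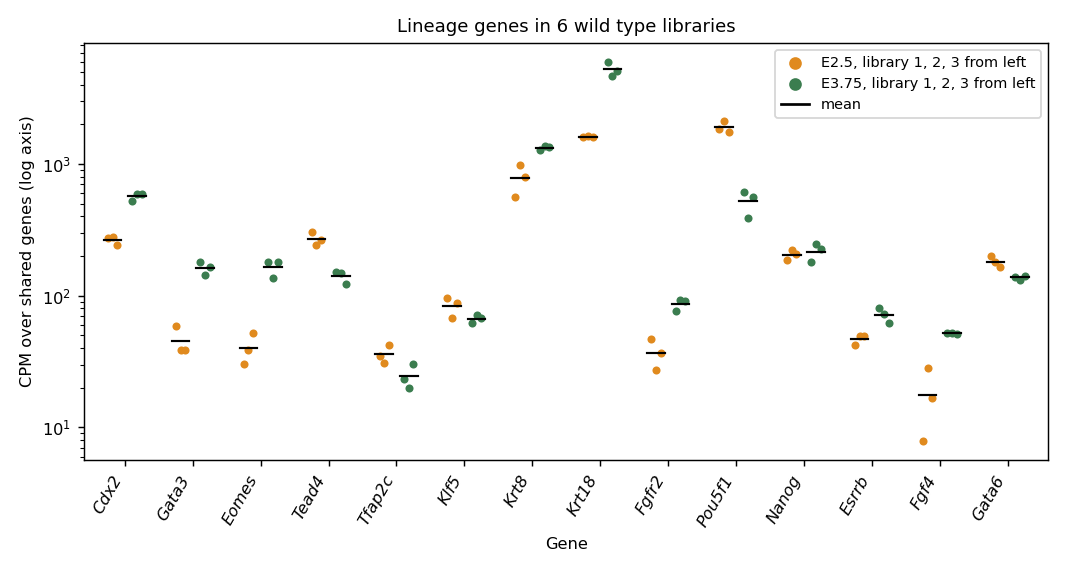
Levels of 14 lineage genes in each wild type library (vertical log axis, CPM over shared genes; orange E2.5, green E3.75, libraries 1 to 3 from left, bars are means). Cdx2, Gata3, Eomes, Krt18, Fgfr2 and Fgf4 lie higher at E3.75 without overlap, Pou5f1 and Tead4 lower without overlap, and the 2 stages of Nanog overlap.

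The pluripotency genes moved in both directions: of 22 measured, 4 rose and 6 fell, and the median of -0.20 was near that of all genes. With TMM factors 5 rose and 4 fell. A further 6 genes of the list were listed at E3.75 only and 1 at E2.5 only, and were not compared. Pou5f1 itself stood at 1854, 2138 and 1764 CPM at E2.5 and at 614.5, 388.0 and 559.1 CPM at E3.75, and fell by 1.90 ± 0.14 (SE; adjusted p = 4.96e-08, limma). Nanog, which marks the epiblast, stood at 186.7, 223.6 and 205.8 CPM and at 179.2, 245.1 and 225.4 CPM. The stages overlapped for Nanog, and its difference of 0.07 ± 0.15 did not pass (adjusted p = 0.738). Esrrb stood at 47.2 and 71.9 CPM, a difference of 0.59 (adjusted p = 0.0399) that was under the size required.

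Among the other falls, Nr5a2, a nuclear receptor that can activate Pou5f1, went from 64.8, 51.8 and 63.9 CPM to 11.6, 6.93 and 8.87 CPM (-2.61 ± 0.33 SE; adjusted p = 1.40e-05, limma). Fbxo15, long used as a reporter gene of pluripotent cells, went from 442.8 ± 61.1 to 110.5 ± 15.5 CPM (SD, n = 3). The rises were led by Dppa5a, an RNA-binding protein of pluripotent cells, which stood at 206.8, 237.7 and 210.7 CPM at E2.5 and at 803.3, 635.7 and 752.5 CPM at E3.75 (1.73 ± 0.12). Fgf4 was the second by size. Zfp42 and Stat3 complete the 4.

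The ligand Fgf4 stood at 7.83, 28.2 and 16.6 CPM at E2.5 and at 52.0, 52.0 and 51.5 CPM at E3.75, and rose by 1.67 ± 0.39 (SE; adjusted p = 0.00231, limma). Its receptor Fgfr2 went from 47.0, 27.1 and 36.5 CPM to 77.1, 93.5 and 90.5 CPM (1.25 ± 0.25). Both stages were separate for ligand and receptor. Of 14 genes of the FGF and MAPK pathway 4 rose and 1 fell, with a median of -0.01. The other rises were those of the phosphatases Dusp4 (15.0 to 52.4 CPM) and Dusp1 (8.99 to 26.4 CPM), which switch MAP kinases off. Dusp1 is listed under different transcripts and did not pass with the first 2 libraries. Fgfbp1, which binds secreted FGF, fell by 2.11. Of 7 genes of the TGF-beta, BMP and Nodal pathways 1 rose, the BMP target Id3, from 42.2 ± 13.7 to 129.3 ± 11.5 CPM (SD, n = 3).

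Another 9 genes of the primitive endoderm list, Sox17, Gata4 and Pdgfra among them, were listed at E3.75 only, and 2 at E2.5 only. Those genes were not compared, so the counts here do not cover them. Of the 14 genes measured at both stages 2 rose and 1 fell, where 8.77% of all genes rose and 17.1% fell. With TMM factors 4 rose. Apoe, the apolipoprotein, stood at 11.2, 22.4 and 14.1 CPM at E2.5 and at 140.6, 71.9 and 92.3 CPM at E3.75 (2.60 ± 0.32 SE; adjusted p = 1.14e-05, limma), and Lrp2 is the other. Cited1, a transcription cofactor, went from 1056, 940.2 and 1100 CPM to 219.6, 270.2 and 269.8 CPM and fell by 2.03 ± 0.12. Gata6, which directs the primitive endoderm, was at 181.1 ± 17.4 and 137.7 ± 4.81 CPM (SD, n = 3), and its difference of -0.39 (adjusted p = 0.0429) was under the size required.

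In the Hippo pathway 5 of 12 genes measured at both stages fell, and the median difference was -1.03 against -0.174 over all genes. A further 4 genes of the list were listed at E3.75 only and 3 at E2.5 only, and were not compared. With TMM factors 3 of the 12 fell, as with the first 2 libraries. Wwc2, which activates the pathway's kinases, stood at 106.2, 47.1 and 100.4 CPM at E2.5 and at 13.5, 11.3 and 14.2 CPM at E3.75 (-2.53 ± 0.34 SE; adjusted p = 2.22e-05, limma). Mob1a, a cofactor of the LATS kinases, went from 79.2 ± 24.7 to 19.3 ± 4.92 CPM (SD, n = 3). Yap1, the coactivator that the pathway restrains, went from 96.1 to 40.3 CPM and lost the call without E2.5 library 1, with DESeq2 size factors and after all reads were thinned to equal depth. Amotl2, an angiomotin, went from 35.7 to 14.4 CPM and lost it without any 1 of E2.5 libraries 2 and 3 and E3.75 libraries 1 and 2. Amot, another angiomotin, completes the 5.

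Genes of the list for the oocyte and the subcortical maternal complex did not all follow 1 direction. Khdc3, a member of the subcortical maternal complex, stood at 594.8, 606.0 and 603.2 CPM at E2.5 and at 2333, 2550 and 2322 CPM at E3.75 (1.99 ± 0.08 SE; adjusted p = 1.49e-10, limma). Ooep, of the same complex, went from 26.8, 11.8 and 19.1 CPM to 146.4, 129.0 and 161.5 CPM (2.92 ± 0.28). Both were higher at the later stage in every library. Padi6, a further member, fell by 1.72, from 43.2 ± 9.44 to 14.2 ± 10.2 CPM (SD, n = 3). Of 8 measured genes of this list 2 rose and 1 fell.

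Of 8 genes that mark the 2-cell to morula stages 4 fell, with a median of -1.35. Pdxk was given above. Sp110, a nuclear body protein, stood at 157.6, 73.0 and 149.3 CPM at E2.5 and at 7.71, 12.1 and 14.2 CPM at E3.75 (-3.33 ± 0.34 SE; adjusted p = 1.57e-06, limma). Alppl2, an alkaline phosphatase, went from 1639 ± 164.7 to 471.4 ± 42.9 CPM (SD, n = 3). Gata1 went from 23.1 to 7.56 CPM and lost the call without E3.75 library 3, where it stood at 1.78 CPM, about 1 read.

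Of 24 genes of metal binding and of defence against oxidants 8 rose and 1 fell, with a median of 0.61. Mt2, a metallothionein, stood at 194.5, 82.4 and 124.5 CPM at E2.5 and at 1391, 1929 and 1628 CPM at E3.75 (3.69 ± 0.22 SE; adjusted p = 5.00e-09, limma). Mt1, its neighbour on the chromosome, went from 514.3, 260.1 and 403.2 CPM to 2402, 3445 and 2996 CPM (2.94 ± 0.19). In both genes every E3.75 library lay above every E2.5 library. Mt1 is listed under different transcripts in the 2 tables. Prdx2, a peroxiredoxin that removes hydrogen peroxide, went from 103.6 ± 35.0 to 301.6 ± 36.7 CPM (SD, n = 3), and Gsta4 was given above. The 1 gene that fell was Cat, catalase.

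A stretch before the RefSeq start of each metallothionein gene is shown because the 2 genes lie side by side and rose together. Metallothioneins are also the textbook targets of the metal-sensing factor MTF1. The 250 bases before the RefSeq start are given 5′ to 3′ (build GRCm38.p6, both on the plus strand, chr8:94178839-94179088 for Mt1 and chr8:94172368-94172617 for Mt2). Capitals mark the core of the metal response element, TGCACNC or TGCGCNC, on either strand.
Mt1: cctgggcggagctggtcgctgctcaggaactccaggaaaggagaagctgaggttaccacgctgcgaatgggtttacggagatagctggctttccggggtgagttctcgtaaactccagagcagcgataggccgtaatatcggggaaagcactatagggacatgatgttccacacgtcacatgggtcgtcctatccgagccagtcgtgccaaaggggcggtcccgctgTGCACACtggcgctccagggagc
Mt2: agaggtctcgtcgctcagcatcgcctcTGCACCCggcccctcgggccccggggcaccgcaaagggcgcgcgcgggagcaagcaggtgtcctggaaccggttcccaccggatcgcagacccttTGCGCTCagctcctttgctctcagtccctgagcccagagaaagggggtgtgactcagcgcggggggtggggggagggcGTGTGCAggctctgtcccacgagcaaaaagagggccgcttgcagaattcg
The Mt1 stretch holds 1 match and the Mt2 stretch holds 3. Only these 250 bases were searched, so elements further upstream or past the RefSeq start are not counted. A match was found in 21.41% of the 32851 RefSeq promoters of this length, in 30.12% of those of the genes compared, in 29.59% of those of genes that rose and in 31.29% of those of genes that fell. The share among genes that rose was thus no higher than the share among genes compared. Genes and motif were chosen after the values and the promoters of other genes, with other motifs, had been seen.

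Genes in the lists for the TCA cycle and the respiratory chain were mostly higher at E3.75, by small amounts. Of 24 genes of the TCA cycle list 8 rose (8.77% of all genes did). The median of all genes was exceeded by 22, and the median of the list was 0.78. Me1, malic enzyme, led with a rise of 2.39 from 31.3, 49.4 and 39.0 CPM to 186.9, 225.2 and 218.3 CPM (adjusted p = 2.66e-07, limma). Dlst of the oxoglutarate dehydrogenase complex (60.7 to 146.4 CPM), the isocitrate dehydrogenase subunit Idh3b (463.6 to 1081 CPM) and the succinate dehydrogenase subunit Sdha (188.8 to 430.7 CPM) followed. With TMM factors 11 of the 24 rose.

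Of 66 nuclear genes of the respiratory chain and ATP synthase 10 rose (8.77% of all genes did). The median of all genes was exceeded by 63, and the median of the list was 0.55. With TMM factors 17 rose. Cox7b, a subunit of cytochrome oxidase, stood at 175.5, 144.7 and 150.2 CPM at E2.5 and at 618.4, 525.7 and 603.4 CPM at E3.75 (1.89 ± 0.13 SE; adjusted p = 2.22e-08, limma). The complex I subunits Ndufa1 (29.8 to 93.1 CPM) and Ndufs3 (88.0 to 207.6 CPM) also rose, with no overlap between stages.

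The 9 mitochondrially encoded genes did not move together: 1 rose and 2 fell. mt-Co1 stood at 1278, 1645 and 1409 CPM at E2.5 and at 8428, 6207 and 7131 CPM at E3.75, a rise of 2.32 ± 0.11 (SE; adjusted p = 3.16e-10, limma). The ribosomal RNA mt-Rnr2 went from 1004, 575.4 and 734.3 CPM to 109.8, 84.0 and 102.9 CPM and fell by 2.92 ± 0.18. mt-Nd5 fell by 1.32, while mt-Nd1 stood at 8874 ± 720.0 and 14460 ± 1106 CPM (SD, n = 3; 0.70) and mt-Cytb at 8800 and 8636 CPM. These genes are cut from shared precursor RNAs, and whether the counting used strand is not given in the sources used here.

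Glycolysis genes split. Of 11 measured at both stages 4 rose and 2 fell, and with the first 2 libraries 2 rose and 2 fell. A further 4 (Hk2, Eno1, Pgk1 and Slc16a1) were listed at E3.75 only and 2 (Ldhb and Pfkfb3) at E2.5 only, and were not compared. The hexokinase gene Hk1 stood at 128.6, 85.9 and 115.3 CPM at E2.5 and at 11.6, 6.06 and 8.87 CPM at E3.75 (-3.52 ± 0.32 SE; adjusted p = 4.47e-07, limma), and the glucose transporter Slc2a8 went from 280.7 ± 30.7 to 84.6 ± 1.55 CPM (SD, n = 3). Both were lower in every E3.75 library. Pkm, pyruvate kinase, went from 63.4 to 145.9 CPM and lost the call without E2.5 library 1. Tpi1, triose phosphate isomerase, went from 44.7 to 104.5 CPM and lost it without E3.75 library 3. Pfkp and the transporter Slc2a3 complete the 4 rises. Tpi1 and Pfkp did not pass with the first 2 libraries.

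In amino acid metabolism 6 of 29 genes rose and 8 fell, where 8.77% of all genes rose and 17.1% fell. Asns, asparagine synthetase, stood at 69.3, 43.5 and 54.8 CPM at E2.5 and at 498.9, 389.7 and 441.9 CPM at E3.75 (2.98 ± 0.18 SE; adjusted p = 5.96e-09, limma). Every E3.75 library lay above the E2.5 range. The taurine transporter Slc6a6 fell by 2.33 and Cth, which makes cysteine, by 2.03.

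In sterol and fatty acid synthesis 3 of 24 rose and 3 fell. Lss, lanosterol synthase, fell by 2.26 (72.5 ± 26.0 to 14.2 ± 4.78 CPM; SD, n = 3) and Scap, which escorts the sterol-sensing factors, by 1.43. Srebf2, 1 of those factors, rose by 1.46 (18.4 to 51.6 CPM) and Pmvk, a mevalonate pathway kinase, by 1.26 (adjusted p = 3.51e-05, limma). The list thus held calls on both sides among its regulators and its enzymes. Of 41 lysosomal and proton pump genes 6 rose and 4 fell, where 8.77% of all genes rose and 17.1% fell. With TMM factors 6 of the 41 rose and 2 fell. Psap, which is cut into saposins that help degrade sphingolipids, stood at 3015, 3522 and 3329 CPM at E2.5 and at 9799, 11200 and 10440 CPM at E3.75 (1.67 ± 0.07). Gla, an alpha-galactosidase, rose by 1.29, while the protease gene Ctsz fell by 1.46 and Man2b1, a mannosidase, by 1.83.

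Of 37 ribosome biogenesis genes 8 fell, a share near the 17.1% of all genes that fell, and 1 rose. The median difference was -0.44 against -0.174 over all genes, and 10 of the 37 lay above the latter. With TMM factors 6 fell and 2 rose. Bop1, needed to process the large subunit's RNA, stood at 138.6, 133.0 and 126.1 CPM at E2.5 and at 23.1, 33.8 and 28.4 CPM at E3.75 (-2.20 ± 0.22 SE; adjusted p = 1.57e-06, limma). Rrp9 fell by 1.94 and Gar1, of the pseudouridylation particles, by 1.57, while Utp14a rose by 1.47. Of 62 cytosolic ribosomal protein genes 3 rose and 4 fell, with a median of -0.02 that became 0.14 with TMM factors. The greatest of these differences were in members with few reads: Rpl10 went from 10.9 to 35.4 CPM, and Rpl27, Rpl34 and Rps27a fell to 23.9, 21.1 and 49.1 CPM. Ribosomal protein genes have many near-identical copies between which reads can be split, and Rpl10 is listed under different transcripts, so these values are uncertain.

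In the cell cycle list 9 of 36 genes fell and 2 rose, where 17.1% of all genes fell and 8.77% rose. The median was -0.37 against -0.174 over all genes. With TMM factors 6 fell and 2 rose. Ccne1 led the falls. Cdc25c, a phosphatase of mitotic entry, stood at 91.7, 44.7 and 78.8 CPM at E2.5 and at 27.0, 23.4 and 12.4 CPM at E3.75 (-1.74 ± 0.35 SE; adjusted p = 0.000782, limma). Aurkb, a kinase of chromosome segregation, went from 131.6 ± 9.58 to 54.2 ± 8.66 CPM (SD, n = 3). Cdkn1a, an inhibitor of cyclin-dependent kinases and a target of p53, also fell, from 46.0 to 14.0 CPM. The rises were Ccnb2 and Mki67.

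Cdkn1a was 1 of 3 falls among 15 p53 targets and apoptosis genes, of which 1 rose (17.1% of all genes fell and 8.77% rose). Ccng1, another p53 target, went from 47.5 to 14.8 CPM (adjusted p = 0.000779, limma), and Bid, a death-promoting BCL2 relative, by 1.11. Mdm2, which degrades p53, rose by 1.04 from 25.1 to 53.3 CPM. Neither Bid nor Mdm2 held its call when single libraries were left out: Bid lost it without E3.75 library 1 or 2, and Mdm2 without E2.5 library 2 or E3.75 library 1, and with the first 2 libraries. In the heat shock and immediate early list 1 of 13 rose and 3 fell. Hspa5, the main chaperone of the endoplasmic reticulum, went from 206.8 ± 23.8 to 574.1 ± 42.2 CPM (SD, n = 3; 1.47), and Ddit4, Dnaja1 and Bag3 fell by 1.69, 1.44 and 1.24.

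The remaining lists held few calls. Of 33 proteasome genes measured at both stages 0 rose and 0 fell with limma, edgeR and DESeq2, and also at an unadjusted p under 0.05 with the same size. Psmb10, a further member, was listed at E2.5 only (103.6, 74.9 and 96.5 CPM as deposited) and was not compared. Without a size requirement 14 were higher and 4 lower, with Psmb6 at 0.80 and Psmd3 at -0.74 having the smallest p of the list. Of 24 genes of DNA methylation and chromatin 2 fell: Smarca5, a nucleosome remodeler, which had 9.01 CPM at E3.75 (-1.33), and Chaf1b, of the histone chaperone CAF-1, which went from 41.8 to 18.3 CPM (-1.28). Neither passed with the first 2 libraries, and Chaf1b lost the call without E3.75 library 3.

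Of 4 measured imprinted genes and regulators of Xist, Igf2r, the receptor that clears IGF2, stood at 156.5, 144.7 and 146.9 CPM at E2.5 and at 32.8, 32.9 and 42.6 CPM at E3.75 (-2.03 ± 0.20 SE; adjusted p = 1.40e-06, limma). Every E3.75 library was thus well under the E2.5 range. Gab1 fell by 1.04 and lost the call without E2.5 library 1 or E3.75 library 2. Slc38a4, an amino acid transporter, rose by 1.04 and lost it without E2.5 library 3 or E3.75 library 2, and with the first 2 libraries.

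**Figure D4:**
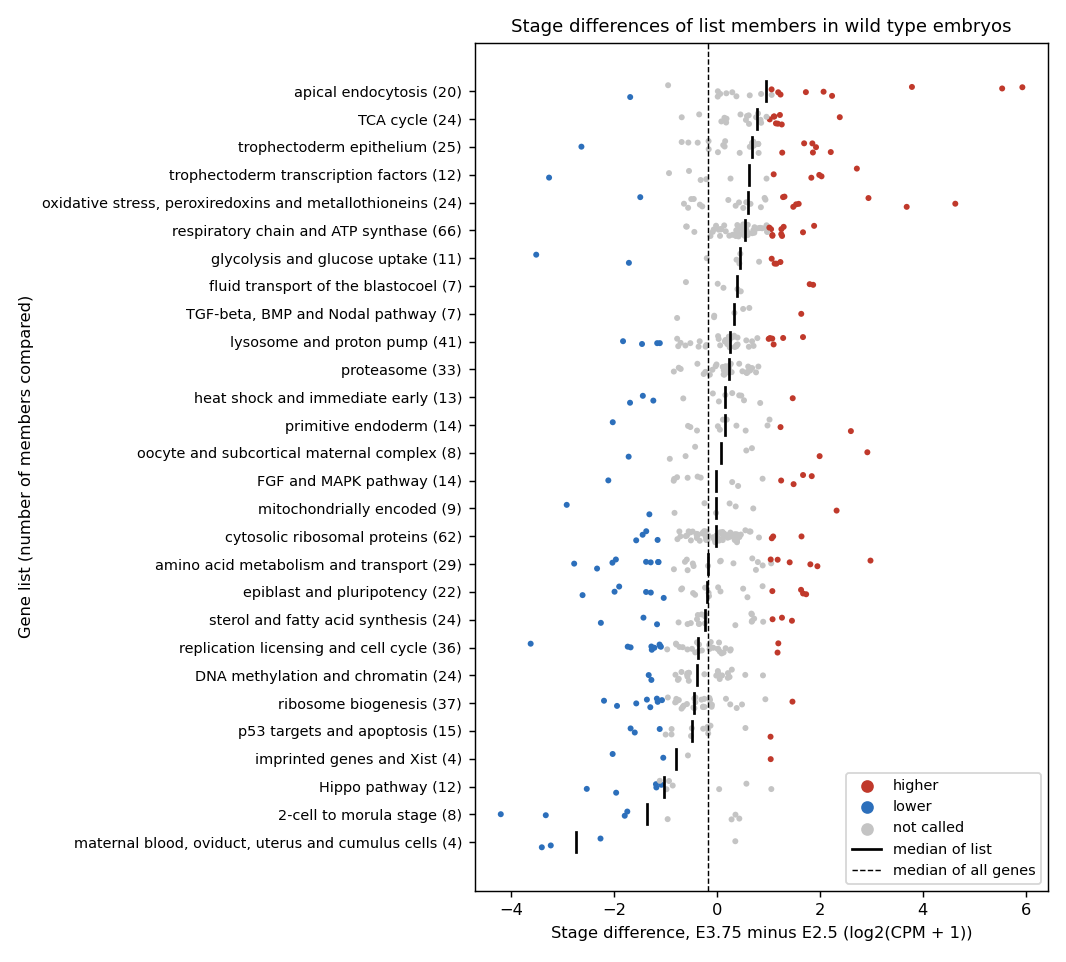
Stage differences of the members of 28 gene lists measured at both stages (horizontal axis, log2(CPM + 1), E3.75 minus E2.5; number of members in parentheses). Red points rose, blue points fell and grey points did neither; a black bar marks each list's median and the dashed line the median of all genes at -0.174. Apical endocytosis has the highest median, 0.96, and the list of maternal blood and reproductive tract cells the lowest, -2.75. Members of the lists were chosen with earlier results of these data known.

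Markers of maternal cells were also read. Of 29 genes that mark maternal blood, oviduct, uterus and cumulus cells, 4 were measured at both stages and 3 fell, all of them globins. Hbb-bs stood at 720.0, 1034 and 934.2 CPM at E2.5 and at 73.2, 123.0 and 90.5 CPM at E3.75 (-3.23 ± 0.18 SE; adjusted p = 2.26e-09, limma). Hba-a1 went from 268.9 ± 33.7 to 24.6 ± 4.33 CPM (SD, n = 3) and Hbb-bt from 128.4 to 24.6 CPM. The summed level of the 4 genes was 1060 to 1480 CPM at E2.5 and 123.3 to 206.1 CPM at E3.75. Of the rest of the list, Alas2 and Pecam1 were in the E2.5 table only, Lyz2 and Muc1 in the E3.75 table only, and the others in neither. The fourth, the class II gene H2-Ab1 of antigen-presenting cells, had a difference of 0.36. Globin genes have near-identical copies between which reads can be split. The 3 globins thus moved with stage, while H2-Ab1 did not pass. The part of maternal cells in the differences of other genes was not tested.

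Rack1 and Rpl8 were among the 6 genes with the highest CPM at both stages, and Rps3 was among them at E2.5. Rack1, a ribosomal scaffold, took the most reads, with 25620, 24470 and 25510 CPM at E2.5 and 19290, 19440 and 19910 CPM at E3.75 (-0.37). Rpl8 stood at 10660 and 11470 CPM and Rps3 at 11550 and 8763 CPM. Calcoco2, an autophagy receptor, was among the 6 highest at E3.75 with 10400 CPM after 8588 CPM at E2.5. None of these 4 genes reached a difference of 1 in size.

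The stage difference of wild type embryos was last set beside that of null embryos, in a limma fit over 12 libraries. The targeted gene Pou5f1 was lower in null libraries at both stages: 953.8, 1035 and 986.5 CPM at E2.5 and 224.5, 290.7 and 271.1 CPM at E3.75, against the wild type values above. Which stretch of the gene is deleted is not given in the labels, and 3′ reads from outside it would not check the genotype. Its stage difference was -1.92 in null and -1.90 in wild type embryos. Of the genes that rose in wild type embryos 504 of 517 were also higher at E3.75 in null embryos, and of those that fell 1001 of 1008 were lower. The same count over all genes is not given here. Both genotypes of a stage share a table, so this agreement cannot tell a difference of stage from a difference between the tables. The 2 stage differences were themselves different, at an adjusted p under 0.05, for 90 of 5893 genes (1.53%), with the null value the higher in 43 and the lower in 47.

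Id3 had the smallest adjusted p of the named genes in that test: it rose by 1.64 in wild type embryos, whereas in null embryos its means were 97.1 CPM at E2.5 and 67.9 CPM at E3.75 (difference of the differences -2.11 ± 0.31 SE, adjusted p = 0.00245, limma). Hand1, which fell by 3.27 in wild type embryos, went from 285.3 to 8.79 CPM in null embryos (-1.69 ± 0.35, adjusted p = 0.0208). Cdx2 differed between the genotypes by -0.04 (adjusted p = 0.917). This comparison was fragile. With the first 2 libraries of each group 0 genes passed with limma, 381 had an unadjusted p under 0.05 and the smallest adjusted p was 0.146. All 90 genes kept their sign, but they had been called with those same libraries among others, so this is no support for them. Leaving out any single library except E2.5 wild type library 1 moved the count by over 1.5 times, to between 7 (without E3.75 wild type library 3) and 289 (without E2.5 wild type library 2). With all libraries edgeR called 128 genes and DESeq2 138.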

How the data were processed

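The authors deposited CPM, which is reads per 1000000 of a library, with a separate table for each stage, and each table's genes all reach at least 10.28 CPM in 3 of its 6 libraries. edgeR and mm9 are named in the submitters' processing notes. No aligner, counter, annotation or strand setting is given in the sources used here. The 5893 genes shared by Ensembl identifier (5804 with a symbol in the reference gene table) were rescaled to 1000000 per library. Genes in 1 table only (1189 at E2.5, 755 at E3.75) were not compared. The main test was limma 3.58.1 in R 4.3.3 on log2(CPM + 1), with a variance trend, two-sided, with Benjamini-Hochberg adjustment over all 5893 genes, a threshold of 0.05 and a minimum size of 1. On this scale the change of low genes is understated. CPM values were whole multiples of 1 read, and all 82380 of 82380 values tested (100%) came out whole to within 0.01 of a read. edgeR 4.0.16, DESeq2 1.42.0 and thinning ran on these as alternatives. Reads carry no stated molecular identifiers, and limma's errors cover spread between libraries only. The tests were checked on simulated data.

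Other alternatives were TMM and DESeq2 size factors, the CPM as deposited, scaling without the 50 most abundant genes, pseudocounts of 0.1 and 5, a mean of at least 20 CPM, each library left out, the first 2 libraries of each group, a replicate block, all 12 libraries in 1 fit and, added after seeing the data, genes with the same transcript in both tables. Genes named are a lineage panel, the 12 greatest rises and 12 greatest falls without overlap and with a mean of at least 50 CPM at a stage, up to 4 called members of each of 28 lists (or the 2 with the smallest p), the 5 greatest differences from null embryos per direction, and the 6 highest genes per stage. Some genes the rule names are not reported here. Of the panel, Sox2 was not analysed here. Names that complete a count of 5 or fewer were added after their values were seen. The comparison, members and lists were chosen with earlier results of these data known. Promoters are from RefSeq (GRCm38.p6).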

Additional observations from a re-analysis of the deposited data

Results flagged for a closer look

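For 17 of the named genes the stage difference of null embryos differed from that of wild type embryos in the limma fit over 12 libraries (adjusted p under 0.05), which is why they are listed. With the first 2 libraries of each group the same test called 0 genes (381 at an unadjusted p under 0.05), so none of the calls below held without library 3 of each group. Values are log2 stage differences, null minus wild type.

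The null value was the lower for Lpp (-2.77), Exo5 (-2.4), Nol4l (-2.2), Id3 (-2.11), Cd82 (-2.1), Dusp1 (-2), Apoe (-1.71), Hand1 (-1.69), Upp1 (-1.09), Me1 (-0.94) and Sdha (-0.873). Lpp, Exo5, Nol4l and Cd82 did not pass as stage differences in wild type embryos, where they stood at 0.43, 0.02, 0.53 and 0.38, and their means there were under 30 CPM at both stages. Id3, a target of BMP signals, and Apoe rose in wild type embryos, and Hand1 fell in them and was lower at E3.75 in null embryos too. The stage difference of Upp1 was 4.74 in wild type and 3.65 in null embryos.

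The null value was the higher for Gm11221 (2.19), Elobl (2.12), Ppcdc (1.52), Xrcc1 (1.51), Snapc5 (1.45) and Hba-a1 (1.41). Xrcc1, a scaffold of DNA break repair, fell from 198.8 ± 56.5 to 27.8 ± 5.43 CPM in wild type embryos (SD, n = 3), and its means were 118.7 and 50.2 CPM in null embryos. Hba-a1, a globin of red blood cells, had means of 244.7 and 63.9 CPM in null embryos against 268.9 and 24.6 CPM in wild type embryos. Gm11221, Dusp1 and Upp1 are listed under different transcripts in the 2 tables.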

How the results depend on the processing

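Counts of rises and falls stayed within 1.5 times of 517 and 1008 under every alternative run, and no gene that rose or fell turned its direction in any of them. A gene that rose or fell differed by at least 1 in these same libraries, so its kept direction is no test. Of 116 named genes that passed, 103 passed under every alternative and 107 with the first 2 libraries. The 13 others were Amotl2, Bid, Chaf1b, Dusp1, Gab1, Gata1, Gm11221, Mdm2, Pkm, Slc38a4, Smarca5, Tpi1 and Yap1. Stage and table coincide under every alternative, and low genes are limited by depth, since 1 read was worth up to 1.88 CPM.

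The count of 90 differences from null embryos moved more: to 138 with DESeq2 (2856 genes had no adjusted p), 45 with thinned reads and 0 with the first 2 libraries, and between 7 (without E3.75 wild type library 3) and 289 (without E2.5 wild type library 2) when single libraries were left out. The cause was not tested. Equal replicate numbers did not pair the libraries (deviations of libraries 1, 2 and 3 correlated at -0.00567, -0.0214 and -0.00154 between stages); a replicate block gave 526 rises, 1010 falls and 57 differences from null embryos.

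Differences near 0 changed sign for 3 named genes that did not pass. mt-Cytb became 0.15 with TMM factors, 0.165 with DESeq2 size factors and 0.029 without the 50 most abundant genes, and ran from -0.123 to 0.091 with single libraries left out. Exo5 became -0.016 with edgeR, -0.40 with thinned reads and between -0.25 and 0.168 with single libraries left out. Nanog ran from -0.027 (without E3.75 library 2) to 0.198 with single libraries left out.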

Other observations

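Genes in 1 table only were not compared between stages, and their levels are given as deposited; they were named after their values were seen. In the E3.75 table alone, Adh1, an alcohol dehydrogenase, stood at 4128, 2473 and 3142 CPM in wild type libraries 1 to 3, and Ndrg1 at 1006, 1051 and 1076 CPM. Of the primitive endoderm list 9 genes were in the E3.75 table only and 2 in the E2.5 table only, the regulator Foxa2 (36.1 ± 19.8 CPM; SD, n = 3) and P4ha1 (35.7 ± 13.1). Among the 9 were Sox17 (37.4 ± 6.83 CPM; SD, n = 3), Gata4 (20.1 ± 10.7), Pdgfra (26.2 ± 6.83), Lama1 (115.9 ± 45.1) and Sparc (123.6 ± 18.9). Also in the E3.75 table only were the trophectoderm factors Elf5 (45.4 ± 19.6 CPM) and Gata2 (44.2 ± 8.98), the water channel gene Aqp8 (97.5 ± 6.84), which is 1 of the 9, and Spp1 (116.2 ± 46.9) and Tdgf1 (105.3 ± 36.1) of the pluripotency list, which had 6 genes in this table only and 1, Lin28b (12.2 CPM), in the E2.5 table only. In the E2.5 table alone were Obox6, an oocyte-type homeobox gene (137.4, 86.4 and 111.9 CPM), Fgf3 (46.6 ± 3.14) and Phlda3, a p53 target (83.7 ± 30.9).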
